A study of Homo sapiens with 8 samples.

Results

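Mitochondrially encoded RNAs are the 37 transcripts of the mitochondrial genome, namely 2 rRNAs, 13 mRNAs and 22 tRNAs. They were followed here in iCLIP libraries of dyskerin and GAR1. The members were all crosslink sites listed on the mitochondrial chromosome, on either strand, and they numbered 2525 of the 2006603 sites in the 8 libraries. Of the 37 genes, 16 had a site in at least 1 library, which were 2 of 2 rRNAs, 6 of 13 mRNAs and 8 of 22 tRNAs.

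In iCLIP, ultraviolet light joins proteins to the RNA they touch, and the cDNA made from the recovered RNA tends to end at the joined nucleotide. The cells were U2OS, a human osteosarcoma line, untreated in all 8 libraries, and protein-RNA complexes were taken from nuclear fractions. There were 2 libraries each for dyskerin (precipitated with the Abnova antibody), GAR1 (precipitated with the Proteintech antibody), mouse IgG labelled for the dyskerin set and mouse IgG labelled for the GAR1 set. The GAR1 antibody was raised in rabbit, so its IgG control was not matched in species, and nothing in the labels says whether replicates came from separate cultures, so the p-values below measure a spread that may be technical.

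Mitochondrial RNAs are transcribed from both strands of a small circular genome as long precursors, from which the tRNAs are cut out so that the rRNAs and mRNAs between them are released. They are made and kept inside mitochondria. Dyskerin is an enzyme that turns uridines into pseudouridines. It works with GAR1 and further core proteins in H/ACA particles, which find their targets through guide RNAs and are known from nucleoli and Cajal bodies. Pseudouridines of mitochondrial RNAs are known to be made by other enzymes that need no guide, among them RPUSD4 for the 16S rRNA.

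The sequences on which the results turn are printed here from the hg38 reference, 5′ to 3′ along the RNA with T for U. The first 2 windows of 21 nt are centred on the positions of the 16S rRNA (MT-RNR2) that were among the leading positions of both proteins, which are in capitals.
16S nucleotide 153, chrM:1813-1833, plus strand: caagcataatAtagcaaggac
16S nucleotide 587, chrM:2247-2267, plus strand: ctgaactcctCacacccaatt
The next window holds a pair of 16S nucleotides, 439 and 455 (capitals). Nucleotide 455 was a site in the dyskerin set of libraries alone. Nucleotide 439 was a site in both GAR1 libraries, in IgG replicate 1 of their set and in dyskerin replicate 1.
16S nucleotides 432 to 461, chrM:2102-2131, plus strand: aaagaggAacagctctttggacaCtaggaa
The window around the uridine of the 16S rRNA known to be a pseudouridine (capital) is shown because the libraries could be asked whether dyskerin or GAR1 crosslinked there.
16S known pseudouridine, chrM:3057-3077, plus strand: ctacgtgatcTgagttcagac
Capitals in the last 5 windows are called crosslink sites. They are sites of all 4 antibody libraries in the last 30 nt of MT-ND6, sites of both dyskerin libraries in the last 30 nt of the valine tRNA, and sites of GAR1 replicate 2 in 3 further tRNAs.
MT-ND6 nucleotides 496 to 525, chrM:14149-14178, minus strand: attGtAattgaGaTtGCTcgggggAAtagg
MT-TV nucleotides 40 to 69, chrM:1641-1670, plus strand: ggagatttcaacttaacttgaccgctcTGA
MT-TL1 nucleotides 1 to 30, chrM:3230-3259, plus strand: GTTAAGATGGCAGAgCcCGGTaatcgcata
MT-TP nucleotides 8 to 37, chrM:15987-16016, minus strand: tAGTTTAaATTAGAaTCTTAGCTTTGGGTg
MT-TI nucleotides 8 to 37, chrM:4270-4299, plus strand: tGTCTGATaaAAGaGttACTtTGAtAgAgt

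The values are counts of cDNAs at sites that the authors' caller found significant in each library, and a library total is the sum over its called sites, not its sequencing depth. These totals were 1693951 and 1875459 cDNAs for dyskerin, 585454 and 1976518 for GAR1, 146514 and 8183 for the IgG of the dyskerin set, and 295255 and 10701 for the IgG of the GAR1 set. A gene listed at 0 had no called site, which does not mean that it had no cDNA. Every site in the files lay within an annotated gene on its own strand, and none of the mitochondrial sites was antisense or non-coding, so RNA from such positions was not measured here. MALAT1, a nuclear RNA, was at 3332 to 91698 CPM, the usual scaling of counts to a library total (here the peak cDNAs), and RN7SL1 and RN7SL2, the RNAs of the cytosolic signal recognition particle, were at 0 to 19.7 CPM. Of the other nuclear RNAs examined, NEAT1 was at 349 to 1526, RN7SK at 0 to 935 and RMRP at 0 to 381 CPM. RN7SK had no site in IgG replicate 2 of the GAR1 set. RMRP had none there and none in either IgG library of the dyskerin set.

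Mitochondrial RNAs took a small part of every library. Their average share was lower with each antibody than in its IgG set, and pooled over both antibodies the difference did not pass the test. Their share of the peak cDNAs was 0.564% and 0.520% for dyskerin (Wilson 95% confidence intervals 0.553 to 0.575 and 0.510 to 0.531), against 1.37% and 1.81% in the IgG of the dyskerin set (1.31 to 1.43 and 1.54 to 2.12). For GAR1 the share was 0.304% and 0.406% (0.290 to 0.319 and 0.398 to 0.415), against 0.335% and 1.37% in its IgG set (0.315 to 0.357 and 1.17 to 1.61). Both dyskerin libraries lay below both of their controls, while the GAR1 libraries overlapped theirs. These intervals cover counting error only, and they are narrow beside the spread between the IgG libraries.

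Over the 4 antibody libraries the share averaged 0.449% ± 0.117 (SD, n = 4), against 1.22% ± 0.626 in the 4 IgG libraries. In an exact two-sided permutation test over 70 arrangements the difference of -0.773 percentage points did not pass (p = 0.114, adjusted p = 0.333 over 5 measures). The share of crosslink sites averaged 0.573% ± 0.593 with the antibodies and 1.33% ± 0.917 with IgG (exact permutation p = 0.171, adjusted p = 0.333). Dyskerin lay below GAR1 in this second measure, with 0.0629% and 0.0569% of sites for dyskerin and 1.07% and 1.104% for GAR1. Within each set both antibody libraries lay below both IgG libraries in this measure, which were at 0.342% and 1.08% in the dyskerin set and at 1.34% and 2.55% in the GAR1 set. With libraries permuted only within their set (36 arrangements, a test added after the values were seen), the exact two-sided permutation p was 0.0556 for the share of sites, the smallest possible there, and 0.111 for the share of cDNAs (adjusted p = 0.185 each). An exact permutation test of 2 libraries against 2 cannot go below p = 0.333, so neither protein was tested alone.

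**Figure D1:**
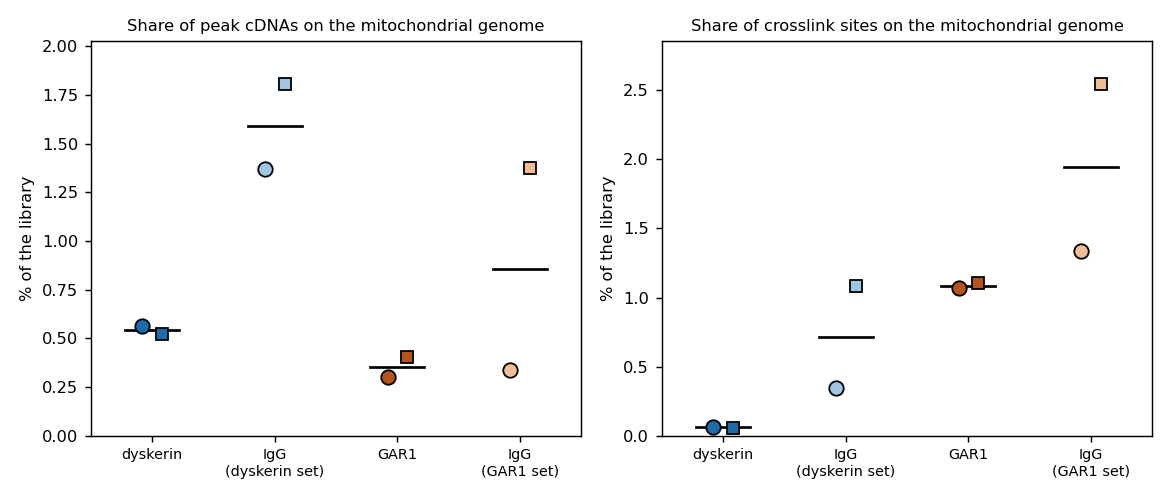
Share of the mitochondrial genome in the peak cDNAs (left) and in the crosslink sites (right) of each library, in % of the library. Circles are replicate 1, squares replicate 2 and bars the mean of the 2 libraries of a group; the dyskerin libraries sit at 0.564% and 0.520% of cDNAs, below both of their IgG controls, and GAR1 replicate 1 sits beside IgG replicate 1 of its set.

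A mitochondrial site stood out from the other sites of its library by its height, and in opposite ways in the sets. In the dyskerin libraries a mitochondrial site held 16.8 and 18.5 cDNAs on average, where other sites held 1.87 and 2.02. In the GAR1 libraries it held 6.72 and 13.6 cDNAs, where other sites held 23.8 and 37.2. The IgG libraries followed their own sets in the larger replicate, with 7.38 cDNAs against 1.83 elsewhere in the dyskerin set and 4.90 against 19.8 elsewhere in the GAR1 set.

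The rRNAs made up nearly all of the mitochondrial signal in every library. Their share of the mitochondrial cDNAs was 95.6% and 97.3% for dyskerin, 93.4% and 90.3% for GAR1, 97.9% and 93.2% in the IgG of the dyskerin set and 93.9% and 100% in the IgG of the GAR1 set. The antibody and IgG libraries overlapped (exact two-sided permutation p = 0.371, adjusted p = 0.464). The tRNA share averaged 1.49% ± 2.46 in antibody and 1.69% ± 3.38 in IgG libraries (SD, n = 4 each; exact permutation p = 1). The share from minus-strand genes averaged 4.55% ± 2.25 in antibody and 2.19% ± 2.66 in IgG libraries (exact permutation p = 0.2, adjusted p = 0.333). Permuted within sets, none of these 3 passed, and the sets ran in opposite directions in the rRNA share (0.90 percentage points for dyskerin minus its IgG set and -5.14 for GAR1 minus its own) and in the tRNA share (-3.10 and 2.701). With each site counted once, the rRNA share differed by -14.9 percentage points between antibody and IgG libraries and the minus-strand share by 9.34, both at the smallest p that 70 arrangements allow (exact permutation p = 0.0286, adjusted p = 0.0714). The number of sites differed too, with 265 to 590 mitochondrial sites in the antibody libraries. The replicate 2 IgG libraries had 32 (dyskerin set) and 70 (GAR1 set). Whether this set the differences was not tested.

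The 16S rRNA, which catalyses peptide bond formation in the mitochondrial ribosome, was the leading member throughout. MT-RNR2 (ENSG00000210082.2, chrM:1671-3229, plus strand) had 8909 and 9270 cDNAs for dyskerin, 1633 and 7039 for GAR1, 1965 and 133 in the IgG of the dyskerin set and 911 and 147 in the IgG of the GAR1 set. This corresponded to 5259 and 4943 CPM for dyskerin, against 13412 and 16253 CPM in its IgG set. For GAR1 it was 2789 and 3561 CPM, against 3085 and 13737 CPM in its IgG set. Ranked by cDNAs among all genes, it was 11th and 10th for dyskerin, 4th and 9th in the IgG of the dyskerin set, 77th in both GAR1 libraries, and 70th and 9th in the IgG of the GAR1 set. The 16S rRNA was thus among the 10 most frequent RNAs in 3 of the 4 control libraries.

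The 12S rRNA, the RNA of the small subunit, was far less crosslinked than the 16S rRNA. MT-RNR1 (ENSG00000211459.2, chrM:648-1601, plus strand) had 221 and 225 cDNAs for dyskerin and 30 and 214 for GAR1, while the IgG of the dyskerin set had 0 and 5 and the IgG of the GAR1 set 19 and 0. Per length, the dyskerin libraries averaged 131 ± 7.78 CPM per kb on the 12S and 3272 ± 144 CPM per kb on the 16S rRNA (SD, n = 2). GAR1 averaged 83.6 ± 42.3 CPM per kb on the 12S and 2037 ± 350 CPM per kb on the 16S rRNA. At the pooled level of dyskerin, IgG replicate 1 of the dyskerin set would have held 18.3 cDNAs of the 12S rRNA, and it had none at a called site, while replicate 2 would have held 1.02 and had 5.

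**Figure D2:**
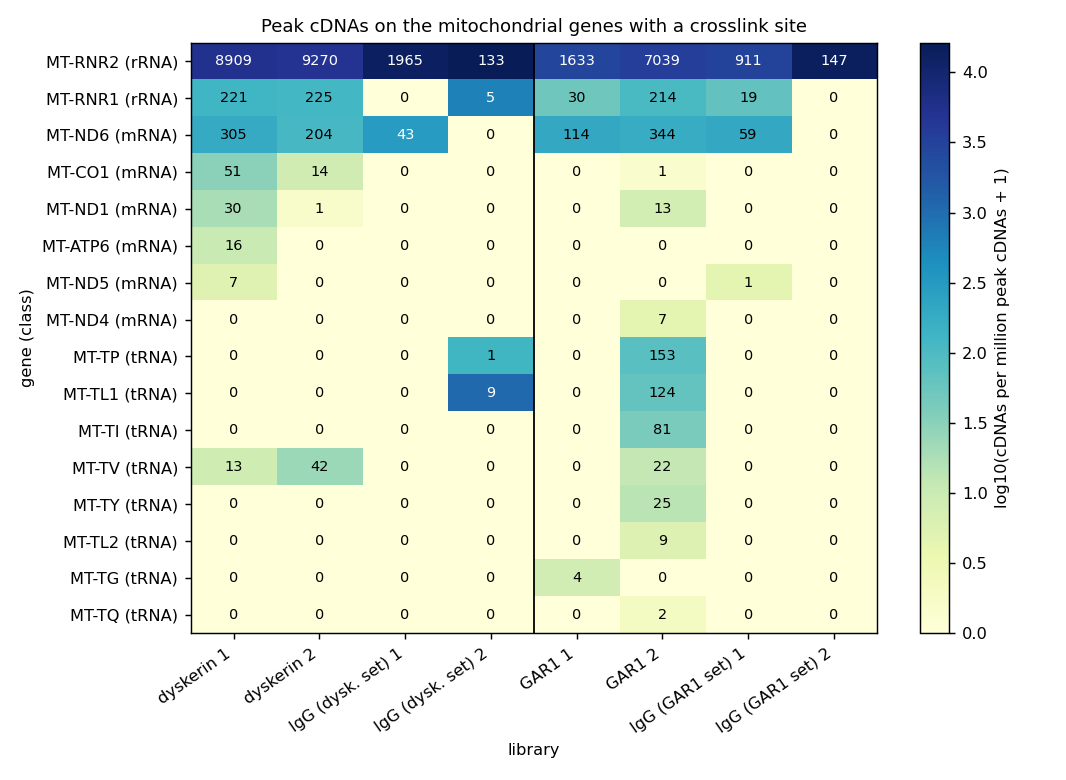
Peak cDNAs (numbers) and log10 of CPM + 1 (colour) for the 16 mitochondrial genes with a site, by library, with the dyskerin set left and the GAR1 set right of the line. MT-RNR2 leads every column, MT-RNR1 and MT-ND6 follow in the antibody libraries, and most tRNA signal lies in GAR1 replicate 2.

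Crosslinks on the 16S rRNA were concentrated in its 5′ part in all 8 libraries, IgG included. The first 779 of its 1559 nt held 98.4% and 99.8% of its cDNAs for dyskerin, 90.8% and 88.8% for GAR1, 100% in both IgG libraries of the dyskerin set, and 92.8% and 94.6% in the IgG of the GAR1 set. Nucleotides 901 to 1000, 1201 to 1400 and 1501 to 1559 had no site in any library. Nucleotides 501 to 600 held 24.4% and 29.2% of the 16S cDNAs for dyskerin, against 19.8% and 0% in its IgG set. They held 46.2% and 34.0% for GAR1, against 43.7% and 19.7% in its IgG set. IgG replicate 1 of the GAR1 set lay between the GAR1 libraries, and IgG replicate 1 of the dyskerin set lay below both dyskerin libraries.

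The most used single nucleotide was 16S nucleotide 153 (chrM position 1823), first in the printed list. It held 9.08% and 12.02% of the mitochondrial cDNAs for dyskerin, against 18.8% and 41.2% in its IgG set. It held 5.73% and 7.12% for GAR1, against 8.79% and 10.9% in its IgG set. It was the highest 16S position in every library but GAR1 replicate 1, where 16S nucleotide 587 (chrM position 2257) had 106 cDNAs and nucleotide 153 had 102. In each set the position took a larger share of the IgG libraries than of the antibody libraries.

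Nucleotide 587 held 3.85% and 5.70% of the mitochondrial cDNAs for dyskerin and 5.95% and 3.67% for GAR1, so that the proteins overlapped. The larger IgG library of each set had it at 3.59% (dyskerin set) and 4.24% (GAR1 set), and the smaller ones had no site there. Nucleotides 33, 178 and 401 were leading positions of the IgG sets. Nucleotide 178 held 2.19% and 1.97% of the mitochondrial cDNAs for dyskerin, against 2.74% and 6.76% in its IgG set, and 0.618% and 1.06% for GAR1, against 1.72% and 1.36% in its IgG set. Nucleotides 33 and 401 reached 4.08% each in IgG replicate 2 of the GAR1 set, on 6 cDNAs each, and were at 2.17% or less in all other libraries. In all, 6 positions, all of them in the 16S rRNA, were called in all 8 libraries, and they held 13.7% and 17.4% of the mitochondrial cDNAs for dyskerin, 8.87% and 11.8% for GAR1, 25.1% and 57.4% in the IgG of the dyskerin set and 13.1% and 16.3% in the IgG of the GAR1 set.

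**Figure D3:**
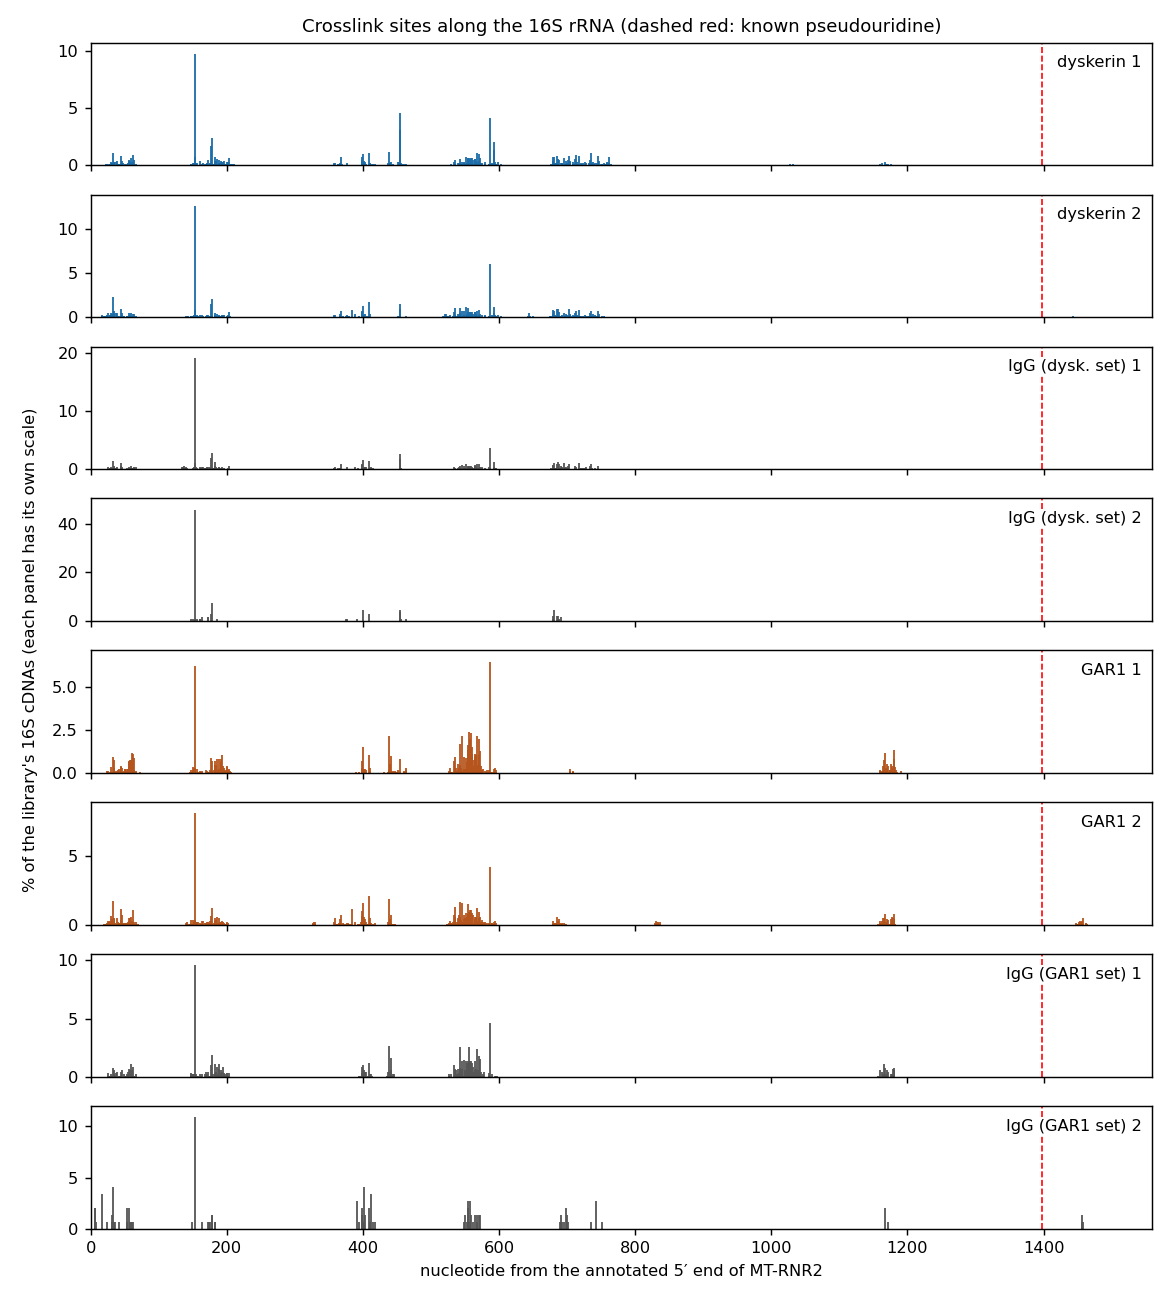
Share of the 16S cDNAs of each library (vertical axis, %, with its own scale in each panel) at each nucleotide from the 5′ end of MT-RNR2 (horizontal axis). Coloured lines are dyskerin and GAR1, grey lines their IgG controls, and the dashed line is the known pseudouridine; the highest line is nucleotide 153 in 7 of the 8 panels, and no line stands at the dashed line.

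The uridine of the 16S rRNA known as a pseudouridine, at chrM position 3067, was not a crosslink site. No library had a called site within 5 nt of it. The nearest site was 221 and 47 nt away for dyskerin, 207 and 50 nt for GAR1, 652 and 181 nt in the IgG of the dyskerin set and 216 and 59 nt in the IgG of the GAR1 set. A replicate of each antibody and 1 IgG library thus had a site within 60 nt, and none was closer than 47 nt. A stop of the cDNA marks protein contact and not the modified base, and reads there may have fallen short of the call.

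The dyskerin and GAR1 profiles of the 16S rRNA differed, and the deeper IgG library of each set resembled the antibody libraries of its own set more than those of the other. At nucleotides 1101 to 1200, dyskerin had 1.29% and 0% of its 16S cDNAs, against 0% in both of its controls, while GAR1 had 9.19% and 7.19%, against 7.24% and 2.72% in its IgG set. At nucleotides 701 to 800, dyskerin had 13.5% and 10.2%, against 7.89% and 0% in its IgG set, while GAR1 had 0.551% and 0.0142%, against 0% and 4.76% in its IgG set. In the first region the GAR1 set lay above the dyskerin set in all libraries. In the second the dyskerin libraries lay above all others, and the controls overlapped.

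Of the nucleotides in the printed window, 455 was divided between the sets, and 439 was not cleanly divided. Nucleotide 455 had 405 and 144 cDNAs for dyskerin and 51 and 6 in the IgG of the dyskerin set, and no site in any of the 4 libraries of the GAR1 set. The adjacent nucleotide 454 had 278 and 88 cDNAs for dyskerin and 35 and 5 in its IgG set, and it had 13 in GAR1 replicate 1, so the absence from the GAR1 set held for nucleotide 455 and not for its neighbour. Nucleotide 439, 16 nt upstream in the printed window, had 105 and 0 cDNAs for dyskerin and none in the IgG of the dyskerin set, against 35 and 133 for GAR1 and 24 and 0 in the IgG of the GAR1 set. The dyskerin replicates thus differed from each other at nucleotide 439. The antibody and the set of libraries changed together in this comparison and cannot be told apart. These nucleotides and regions were picked for their values, so they are given with no test.

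**Figure D4:**
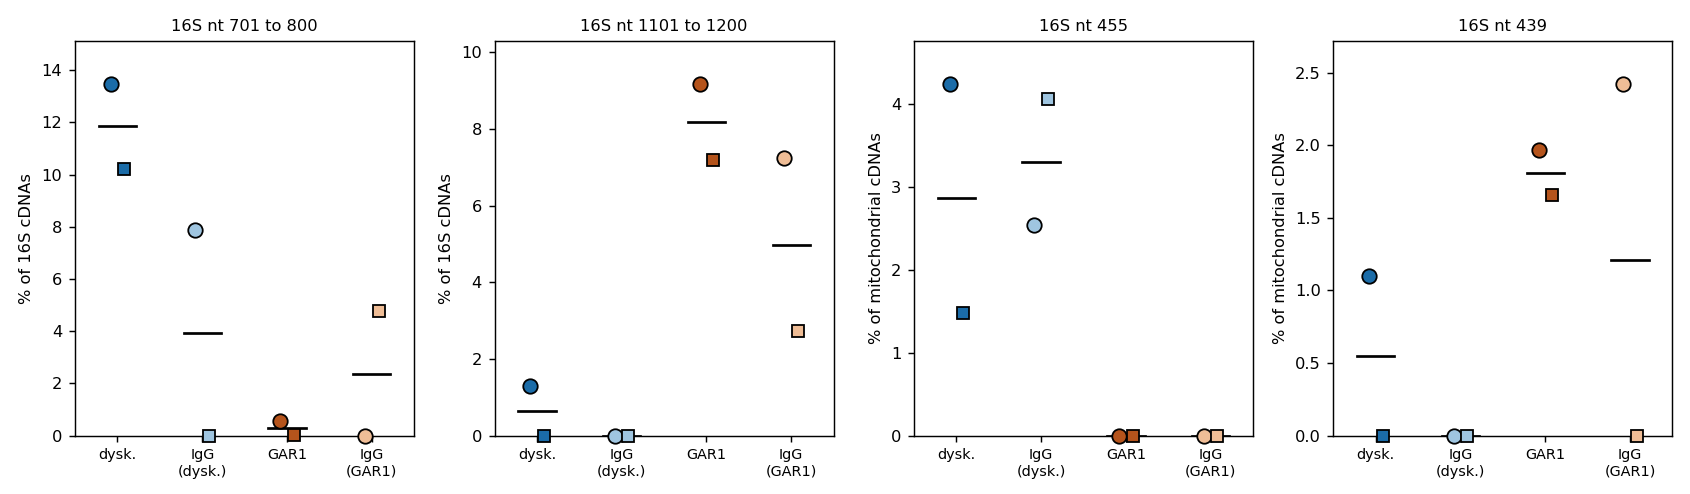
Share of 16S cDNAs in a pair of 100-nt regions (left 2 panels) and share of mitochondrial cDNAs at a pair of nucleotides (right 2 panels), by group. Circles are replicate 1, squares replicate 2 and bars the mean of the 2 libraries; nucleotide 455 has values above 0 only in the dyskerin set, whose IgG libraries reach 2.54% and 4.05%.

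Over the 1559 nucleotides of the 16S rRNA, the correlation of log2(cDNAs + 1) between libraries gave the same order. It is a description across nucleotides, which are not independent, and it drops with the depth of a library. The dyskerin libraries correlated at r = 0.85 with each other, at 0.84 each with IgG replicate 1 of their set, and at 0.66 and 0.59 with IgG replicate 1 of the GAR1 set. GAR1 replicate 1 correlated at 0.89 with IgG replicate 1 of its own set, at 0.79 with GAR1 replicate 2, and at 0.69 and 0.62 with the dyskerin libraries. The 2 shallow IgG libraries stayed between 0.23 and 0.47 with all others.

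**Figure D5:**
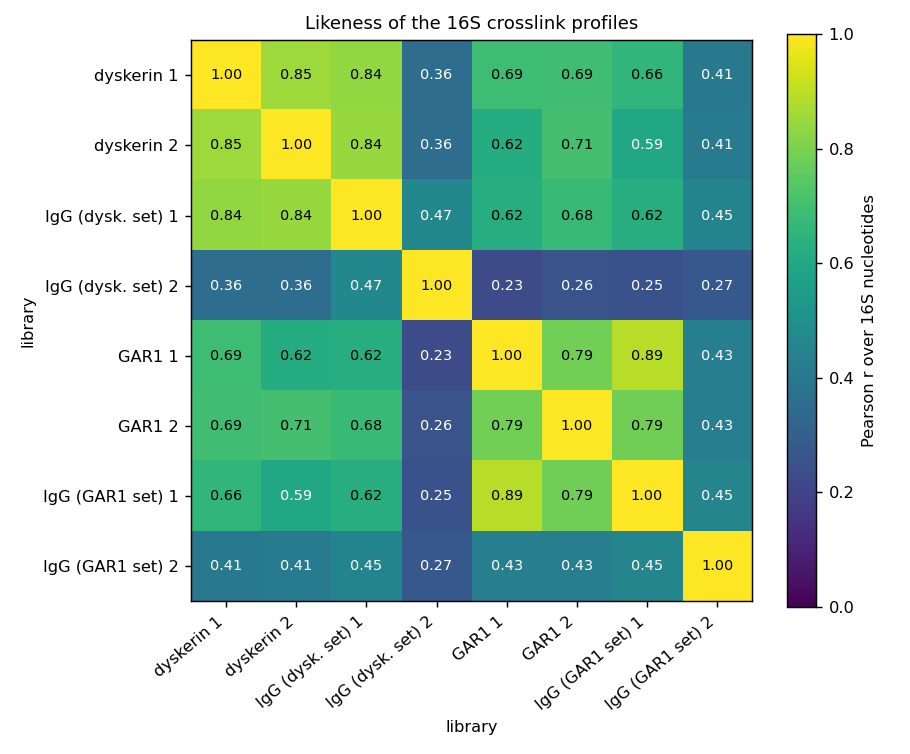
Pearson r of log2(cDNAs + 1) over the 1559 nucleotides of MT-RNR2 for each pair of libraries, as colour and number. The dyskerin libraries and IgG replicate 1 of their set form a block at 0.84 to 0.85, and the GAR1 libraries and IgG replicate 1 of their set a block at 0.79 to 0.89.

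Crosslinked nucleotides of the 16S rRNA were rarely guanines. Guanine makes up 17.3% of the 16S sequence and had 5.62% and 4.81% of the 16S cDNAs for dyskerin, 3.61% and 4.99% for GAR1, 5.45% and 4.51% in the IgG of the dyskerin set and 3.84% and 6.80% in the IgG of the GAR1 set. Uridine, the target of a pseudouridine synthase, makes up 22.1% of the sequence and had 21.2% and 22.5% for dyskerin and 18.7% and 21.5% for GAR1. Neither protein therefore had more of its 16S cDNAs at uridines than the sequence would give, apart from the 22.5% of dyskerin replicate 2. Guanine was below its share of the sequence in all 8 libraries, controls included.

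Mitochondrial positions recurred between replicates more often than nuclear ones in most libraries. Of the mitochondrial sites of the dyskerin libraries, 70.1% and 75.7% were also called in the other replicate, against 28.6% and 27.9% of sites on other chromosomes. For GAR1 it was 86.0% and 38.6%, against 75.7% and 35.1% elsewhere. The IgG of the dyskerin set had 9.93% and 84.4%, against 2.26% and 61.2% elsewhere, and the IgG of the GAR1 set 22.3% and 64.3%, against 13.4% and 74.6% elsewhere. IgG replicate 2 of the GAR1 set was the only library in which the mitochondrial share was the lower. Sites were not matched for height in this comparison. In the dyskerin libraries mitochondrial sites held 16.8 and 18.5 cDNAs on average, against 1.87 and 2.02 elsewhere. Whether height set the recurrence was not tested.

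Most mitochondrial cDNAs of the antibody libraries lay at positions that a control also had, while many positions with few cDNAs did not. Of 908 mitochondrial positions called in any library, 348 were called in an IgG library, and 13 of these in no antibody library. Positions called in no IgG library were 46.0% and 43.9% of the mitochondrial sites for dyskerin and 26.8% and 54.2% for GAR1. They held 9.86% and 11.3% of the mitochondrial cDNAs for dyskerin and 7.41% and 17.8% for GAR1. Both dyskerin libraries and no IgG library shared 117 positions, of which 53 were in the 16S rRNA, 37 in the 12S rRNA, 17 in MT-ND6, 6 in MT-CO1, 3 in MT-TV and 1 in MT-ND1. Both GAR1 libraries and no IgG library shared 45 positions, of which 19 were in the 16S rRNA, 14 in MT-ND6 and 12 in the 12S rRNA. All 4 antibody libraries and no IgG library shared 19 positions. The IgG libraries were much shallower, and a position that they lack may have been under the call there. On all chromosomes, the dyskerin libraries had 902977 and 925145 sites, and the IgG libraries had from 2747 to 79451. Most dyskerin sites elsewhere therefore had no IgG site either. The exact share over all sites was not computed.

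Of the mRNAs, MT-ND6, a complex I subunit and the only mRNA of the minus strand, had by far the most crosslinks. It had 305 and 204 cDNAs for dyskerin and 114 and 344 for GAR1, while the IgG of the dyskerin set had 43 and 0 and the IgG of the GAR1 set 59 and 0. In CPM this was 180 and 109 for dyskerin, against 293 and 0 in its IgG set, and 195 and 174 for GAR1, against 199.8 and 0 in its IgG set. Each shallow IgG library would have held 1.17 cDNAs (dyskerin set) or 1.91 cDNAs (GAR1 set) at the level of its antibody, so an absence was not detectable at their depth.

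The MT-ND6 sites lay toward the 3′ end of the annotated gene (ENSG00000198695.2, chrM:14149-14673), as the capitals of the printed window show. The highest position in all 6 libraries with a site was chrM position 14162, nucleotide 512 of 525. It had 100 and 29 cDNAs for dyskerin, against 21 and 0 in its IgG set, and 37 and 44 for GAR1, against 33 and 0 in its IgG set. Sites past the middle of the gene held 98.0% and 67.6% of its cDNAs for dyskerin and 95.6% and 66.9% for GAR1, and 100% in the IgG library of each set that had any. Because sites were called within annotated genes, crosslinks beyond the annotated end were not measured.

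The other mRNAs had few cDNAs. MT-CO1, the catalytic subunit of cytochrome c oxidase, had 51 and 14 cDNAs for dyskerin and 0 and 1 for GAR1, all between nucleotides 304 and 738 of its 1542 nt, and no site with IgG. MT-ND1 had 30 and 1 for dyskerin and 0 and 13 for GAR1, MT-ATP6 had 16 in dyskerin replicate 1 alone, MT-ND4 had 7 in GAR1 replicate 2 alone, and MT-ND5 had 7 in dyskerin replicate 1 and 1 in IgG replicate 1 of the GAR1 set. At the pooled level of dyskerin, IgG replicate 1 of the dyskerin set would have held 2.67 cDNAs of MT-CO1 and 1.27 of MT-ND1, so a lack of these mRNAs in the controls was not detectable at this depth. The other 7 mRNAs, among them MT-CO2, MT-CO3 and MT-CYB, had no site in any library.

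Signal on the tRNAs came mostly from GAR1 replicate 2. This library had 416 tRNA cDNAs at 78 sites in 7 tRNA genes, which was 5.18% of its mitochondrial cDNAs, while GAR1 replicate 1 had 4 cDNAs, all on the glycine tRNA MT-TG. The proline tRNA MT-TP had 153, the leucine tRNA MT-TL1 124, the isoleucine tRNA MT-TI 81 and the tyrosine tRNA MT-TY 25 cDNAs in GAR1 replicate 2, and none in the other GAR1 library or in either dyskerin library. At the level of GAR1 replicate 2, GAR1 replicate 1 would have held 45.3 cDNAs of MT-TP and 36.7 of MT-TL1, and the dyskerin libraries 131 and 145 of MT-TP. These tRNAs were named for their level in GAR1 replicate 2, and what set the difference between the replicates was not tested.

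In MT-TP and MT-TI most cDNAs lay in the 5′ part, and in MT-TL1 and MT-TL2 all did. The printed windows show the sites of MT-TL1, MT-TP and MT-TI. Sites spanned nucleotides 1 to 21 of 75 in MT-TL1, 9 to 36 of 68 in MT-TP, 9 to 35 of 69 in MT-TI and 10 to 16 of 71 in MT-TL2. MT-TY had sites at nucleotides 33 to 42 of 66, with 68% of its cDNAs past the middle, and MT-TQ had 2 cDNAs, both past the middle at nucleotides 40 and 42 of 72. With IgG, MT-TL1 had 9 cDNAs at a single position, nucleotide 19, and MT-TP 1 cDNA at nucleotide 33, both in replicate 2 of the dyskerin set, which had 148 mitochondrial cDNAs in all. The tRNA share of that IgG library, 6.76%, was above that of GAR1 replicate 2 and rested on 10 cDNAs.

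The valine tRNA MT-TV, which is encoded between the rRNAs and serves as a structural RNA of the human mitochondrial ribosome, was the only tRNA with sites in the dyskerin libraries. It had 13 and 42 cDNAs for dyskerin and 0 and 22 for GAR1, and no site with IgG. All of its sites lay at nucleotides 66 to 69 of 69, directly before the first nucleotide of the 16S rRNA, whose first 4 nucleotides had no site in any of these libraries. Its positions have an exact copy in the nuclear genome, and IgG replicate 1 of the dyskerin set would have held 2.26 cDNAs at the level of dyskerin. The remaining 14 tRNAs had no site in any library.

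Part of the mitochondrial sequence is also present in the nuclear genome, and reads with up to 50 alignments were kept. Of the mitochondrial cDNAs, 26.9% and 20.98% for dyskerin, 15.8% and 19.9% for GAR1, 28.9% and 28.4% in the IgG of the dyskerin set and 20% and 40.1% in the IgG of the GAR1 set lay at positions whose next 30 nt have an exact nuclear copy. Over all libraries 23.7% of the 16S cDNAs lay at such positions, which make up 38.6% of the 16S rRNA. Nucleotide 153 and nucleotide 587 have none. A nuclear copy was called along with its mitochondrial site at 3 positions, all in GAR1 replicate 2, and never with the same count. Counting also nuclear copies whose mitochondrial site was not called, GAR1 replicate 2 had 19 such nuclear sites with 28 cDNAs. Dyskerin replicate 1 had 4 with 5 cDNAs, and the other libraries had none. Of 404 annotated nuclear pseudogenes and copies of mitochondrial genes, only MTCO3P11 had a site, with 6 cDNAs in dyskerin replicate 1.

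Gene by gene, 6 mitochondrial RNAs had the 10 cDNAs in at least 2 libraries needed for a test across all 6403 features that met this limit (edgeR's quasi-likelihood test, TMM scaling, Benjamini-Hochberg adjustment, threshold 0.05). These were MT-RNR2, MT-RNR1, MT-ND6, MT-CO1, MT-ND1 and MT-TV. For dyskerin against its IgG set none of the 6 passed, and 0% of all features were called higher and 0% lower. Before adjustment none of the 6 had a p under 0.05, while 1408 of all features did in the higher and 10 in the lower direction, and DESeq2 called 0 features. For GAR1 against its IgG set none of the 6 passed, and 0% of all features were called higher and 0% lower. Before adjustment 3 of the 6 (MT-RNR2, MT-ND1 and MT-TV) had a p under 0.05 in the higher direction, beside 1010 higher and 5 lower of all features. With GAR1 replicate 1 left out, the log2 fold changes of MT-RNR2, MT-ND1 and MT-TV were 3.98, 9.30 and 10.1. That fit takes the spread of the 1 remaining GAR1 library from the other groups and rests on its TMM factor. In CPM, that library had 3561 of MT-RNR2, against 3085 and 13737 in the IgG of the GAR1 set. With all 8 libraries, DESeq2 called 72 features higher and 13 lower for GAR1 against its IgG set, and none of the 6. It gave no adjusted p for MT-TV, MT-ND1 and MT-CO1, so these could not be called.

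For dyskerin against GAR1, where 37.4% of all features were called higher and 4.37% lower, edgeR called 1 of the 6, MT-ND1. It was lower in dyskerin, with a log2 fold change of -2.79 ± 1.19 (SE, adjusted p = 0.0491). The libraries had 17.7 and 0.533 CPM of MT-ND1 for dyskerin and 0 and 6.58 CPM for GAR1, so the groups overlapped, and the mean was higher for dyskerin (9.12 ± 12.1 CPM, against 3.29 ± 4.65 CPM; SD, n = 2 each). Without TMM the log2 fold change was 1.02 (edgeR adjusted p = 0.156), so the direction of this call depends on the scaling. The log2 fold change was -0.55 without dyskerin replicate 2 (edgeR adjusted p = 0.837), and -2.26 and -2.79 without IgG replicate 1 or 2 of the dyskerin set (edgeR adjusted p = 0.318 and 0.215). Without dyskerin replicate 1 or GAR1 replicate 2, MT-ND1 fell under the limit of counts and was not tested. TMM multiplied library sizes by 1.44 in each dyskerin library and by 0.303 and 0.0713 in the GAR1 libraries, and without TMM the median log2 fold change of all features was 6.56 in place of 5.54.

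MT-RNR2 had a log2 fold change of -1.16 ± 1.29 for dyskerin against its IgG set (edgeR adjusted p = 0.706), 3.23 ± 1.39 for GAR1 against its IgG set (adjusted p = 0.279) and -3.06 ± 1.38 for dyskerin against GAR1 (adjusted p = 0.0546). Scaled to peak cDNAs without TMM the last 2 of these turned, to -1.40 and 0.68, and neither passed (edgeR adjusted p = 0.931 and 0.407). The dyskerin effect minus the GAR1 effect was -4.38 ± 1.89 (edgeR adjusted p = 0.678), and this size rested on the scaling, since without TMM the effects were -1.54 and -1.40. MT-CO1 was at 1.98 ± 1.37 for dyskerin against GAR1 (edgeR adjusted p = 0.217). Without TMM it was at 5.16 ± 1.08 (edgeR adjusted p = 5.46e-06), under a scaling in which 5801 of the 6403 features were called higher in dyskerin.

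The mRNAs of nuclear genes that serve mitochondria were read from the same fit. Of 20 tested mRNAs of nuclear-encoded OXPHOS subunits, the proteins of the respiratory chain, 4 were higher in dyskerin than in GAR1 and none lower, as were 7 of 19 mRNAs of mitochondrial ribosomal proteins and 8 of 23 mRNAs of mitochondrial RNA factors, beside the 37.4% of all features. Their median log2 fold changes were 5.33, 5.16 and 5.62, beside 5.54 over all features and -2.96 for the 6 mitochondrial RNAs, which was 0.85 without TMM. In these lists 15 of 20, 12 of 19 and 16 of 23 members had no site in either GAR1 library, so their fitted values depend on the prior count. With each group's cDNAs set to at least 3, the medians of the ratios of peak cDNAs were 3.51, 3.98 and 3.87, beside 4.57 over all features. No member passed against IgG in either set.

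Among these lists, NDUFA10 and SDHA, subunits of complexes I and II, had log2 fold changes of 7.38 ± 2.94 and 8.19 ± 3.38 for dyskerin against GAR1 (edgeR adjusted p = 0.0490 each). The RNA helicase DHX30 and the mitochondrial transcription factor TFAM were at 7.84 ± 3.08 and 7.81 ± 3.13 (edgeR adjusted p = 0.0490 each). DHX30 and TFAM had no site in either GAR1 library, so their values depend on the prior count. These values are from the main setting, and the number of calls changed with the setting. With no filter on low counts 0 of 14373 features were called higher in dyskerin than in GAR1. With the replicate number as a block it was 0 of 6403. Scaling to total peak cDNAs called 5801 of 6403 higher, DESeq2 3602 of 6403, and at least 50 counts in 2 libraries 3115 of 3569. Whether the named mRNAs were among these is not given here. The mRNA of PUS1, a pseudouridine synthase that acts in mitochondria and nuclei, had 50.2 and 33.1 CPM for dyskerin (85 and 62 cDNAs), against 47.8 CPM (7 cDNAs) and no site in its IgG set, and no site in the GAR1 set. The mRNAs of RPUSD4 and TRUB2, pseudouridine synthases of mitochondria, had 3 and 2 cDNAs in dyskerin replicate 1 alone, and RPUSD3 had no site in any library.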

How the data were processed

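The authors trimmed reads with Cutadapt, whose version is not given in the sources used here, checked them with FastQC 0.11.9, aligned them with STAR 2.7.0e to GRCh38 (hg38) and called significant sites in each library with iCount (3 nt on either side, 100 permutations, false discovery rate 0.05, up to 50 alignments). The deposited values are counts of cDNAs per site, and the same counts per cluster of sites. They were not normalized, and calls were made within genes.

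Sites were assigned by strand to GENCODE 44 with exact gene ends and summed per gene. CPM scales to all peak cDNAs. The main test was the quasi-likelihood test of edgeR 4.0.16 with limma 3.58.1 in R 4.3.3, and DESeq2 1.42.0 was an alternative. All 8 libraries entered 1 fit with 4 residual degrees of freedom and TMM factors of 0.0713 to 4.00. The fit was also run on simulated counts with equal group means apart from a set of changed features. Those counts lacked such differences in scaling, so they do not show how far the calls in the real libraries hold. Shares were compared by exact permutation over 4 antibody and 4 IgG libraries, and within sets as an alternative added after the values were seen.

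Named were both rRNAs, the 6 mRNAs and 6 tRNAs of highest mean CPM, members called in a test, and for each group the 3 leading positions called in both replicates; others were named after their values were seen. Members and lists were chosen with earlier results of these data known. Alternatives changed the scaling, the filter, site weights, gene ends, copied positions, the replicate block and the libraries.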

Additional observations from a re-analysis of the deposited data

Results flagged for a closer look

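The tRNA share of mitochondrial cDNAs set a single library apart from the rest in 2 of 10 groups of 4 values examined. For normally spread values chance sets apart about 1 group in 20, a rate that does not hold where shares are at 0. Among the 4 antibody libraries it was 5.18% in GAR1 replicate 2, against 0.136% to 0.431% in the other 3. Among the 4 IgG libraries it was 6.76% in replicate 2 of the dyskerin set, where it rested on 10 cDNAs, against 0% in the other 3. With the other 3 at 0%, any value above 0% would have been set apart.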

How the results depend on the processing

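Replicates of a group were 2, and the shallow IgG libraries held 147 and 148 mitochondrial cDNAs, so small members could not be compared with IgG. The difference in the share of peak cDNAs between antibody and IgG libraries stayed below 0 in all alternatives, from -1.07 to -0.578 percentage points with a library left out and from -0.944 to -0.489 otherwise, with no adjusted p under 0.05. The shares of sites, rRNA and minus-strand genes kept their directions too and did not pass, with ranges of -1.08 to -0.349, -3.18 to -0.833 and 1.63 to 3.61 percentage points with a library left out. The tRNA share turned to 2.25 percentage points with each site counted once, and ranged from -1.43 to 1.49 with a library left out. It was positive without dyskerin replicate 1 (0.255) or replicate 2 (0.157), GAR1 replicate 1 (0.226) or IgG replicate 2 of the dyskerin set (1.49).

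Calls of mitochondrial genes numbered 0 for dyskerin and 0 for GAR1, each against its IgG set, in every alternative that kept all 8 libraries. For GAR1 against its IgG set, DESeq2 gave no adjusted p for MT-TV, MT-ND1 and MT-CO1. Without GAR1 replicate 1, MT-TV, MT-RNR2 and MT-ND1 had log2 fold changes of 10.1, 3.98 and 9.30 for GAR1 against its IgG set. Where a library is left out, the lone library is assumed to vary like the other groups. For dyskerin against GAR1, the 1 call lower became 1 call higher (MT-CO1) on scaling to total peak cDNAs, 5 lower with no filter on low counts (MT-TI, MT-TY, MT-ND4, MT-TL2 and MT-TP, which had sites in GAR1 replicate 2 alone among these 4 libraries), and 0 with DESeq2, with at least 50 counts in 2 libraries, and without positions that have a nuclear copy. MT-ND1 was not tested in the last 2 of these, and DESeq2 gave it no adjusted p. Over all features, the main fit called 2392 of 6403 higher and 280 lower. Scaling to total peak cDNAs called 5801 higher and 173 lower. With no filter on low counts, 0 of 14373 were called higher and 475 lower. Mitochondrial genes called for dyskerin against GAR1 were also counted with a library left out. The count was 0 with dyskerin replicate 2 or either IgG library of the dyskerin set left out, 0 with MT-ND1 not tested without dyskerin replicate 1 or GAR1 replicate 2, 3 without GAR1 replicate 1 and 2 without IgG replicate 1 of the GAR1 set (range 0 to 3). In the fit without GAR1 replicate 1, MT-TV, MT-RNR2 and MT-ND1 had log2 fold changes of -3.88, -3.82 and -3.86 for dyskerin against GAR1. The median over all features was 6.05 there. In the fit without IgG replicate 1 of the GAR1 set, MT-RNR2 and MT-ND1 were at -3.06 and -2.79, beside a median of 5.63. These genes were thus lower in dyskerin under TMM scaling. With the replicate number as a block (replicate block) no mitochondrial gene was called for dyskerin against GAR1. Of all 6403 features, 0 were called higher and 55 lower with that block. The labels do not say whether same-numbered libraries shared a culture or a batch, and this was not tested. The deviations of same-numbered libraries from their group means correlated at 0.093, -0.073 and 0.089.

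The log2 fold change of MT-ND1 turned to 1.02 without TMM and 3.75 with DESeq2. For MT-RNR2, GAR1 against its IgG set turned to -1.40 without TMM, -1.89 with DESeq2 and -1.65 with at least 50 counts (range -1.37 to 3.98 with a library left out, negative without either dyskerin library at -1.37), and dyskerin against GAR1 turned to 0.68 without TMM and 2.79 with DESeq2. Dyskerin against its IgG set ranged from -3.17 to 0.0900 with a library left out, the highest without IgG replicate 1 of that set. The causes were not tested. A margin of 5 nt ahead of tRNAs and the other assignment of gene overlaps moved 0 mitochondrial sites.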
